A study of Mus musculus with 8 samples.

Results

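The 9 genes described here make or break down prostaglandins, thromboxane and leukotrienes, and were taken by symbol from a list of eicosanoid enzymes: *Ptgs1*, *Hpgds*, *Tbxas1*, *Ptges3*, *Hpgd*, *Alox5*, *Alox5ap*, *Ltc4s* and *Lta4h*. All 9 were found among the 24924 genes analysed in the count table. They came from RNA sequencing of microglia, the resident macrophages of the brain, and of T cells sorted from the brains of C57BL/6 mice aged 20 to 22 months. Mice had received either IL-5, a cytokine of type 2 immunity, at 2 µg daily for 2 days, or PBS, the saline vehicle. Each of the 4 groups (each cell type with each treatment) held 2 libraries, 8 in all. No deletion or transgene is given for any group. Cells were sorted on surface markers, and the labels do not say whether the libraries of a group came from separate mice, so the p-values given below measure only the spread between these libraries. The members were chosen by measured levels as well as by function, because *Hpgd* was high in microglia and appeared in both IL-5 T cell libraries. Contrasts of T cells with microglia, and of IL-5 with PBS in T cells, are therefore given for these 9 genes as descriptions, and where a count of calls is printed for them it stands beside the share of all genes and nothing is read from it. The contrast of IL-5 with PBS in microglia played no part in the choice and was tested.

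Eicosanoids are short-lived lipid messengers made from arachidonic acid, which phospholipases release from membranes. Cyclooxygenases turn it into prostaglandin H2, from which dedicated synthases make prostaglandin D2, prostaglandin E2 and thromboxane A2, and a dehydrogenase in the cytosol inactivates the finished prostaglandins. The 5-lipoxygenase branch makes leukotriene A4, which one enzyme hydrolyses to leukotriene B4, an attractant of leukocytes, and another joins to glutathione to give leukotriene C4, the parent of the cysteinyl leukotrienes. Microglia and other macrophages are known sources of both branches, whereas T cells are usually described as lacking 5-lipoxygenase while carrying leukotriene A4 hydrolase.

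The libraries held 23536908 to 30423828 reads assigned to genes. A further 15.2% to 25.5% of counted reads fell in no gene, the highest share being in replicate 1 of the IL-5 microglia. In it 13172 genes had a count, fewer than the 13490 or more of every other library. Levels are given as counts per 1000000 reads assigned to genes (CPM), and 3 counts, taken as the floor of detection, came to 0.0986 to 0.127 CPM. The sorted cells carried the markers of their labels. The 16 microglial markers summed to 58711 to 80774 CPM in microglia and to 104 to 184 CPM in T cells, and the 11 T cell markers to 15.9 to 179 CPM in microglia and 4205 to 7264 CPM in T cells. Transcripts of other cells were present in both populations. Neutrophil markers summed to 13388 to 17513 CPM in microglia, with *S100a8* alone at 5496 to 10490 CPM, and to 22.8 to 69.4 CPM in T cells. The 6 platelet markers summed to 162 to 275 CPM in microglia and 3.92 to 26.8 CPM in T cells. In microglia that sum was nearly all *Gp9* (37.7 to 80.2 CPM) and *Pf4* (78.9 to 235 CPM), which border macrophages also express, while *Gp6* was at 0 in all 8 libraries and *Ppbp* at 0 in 7. Choroid plexus markers summed to 35732 to 63628 CPM in microglia and 58124 to 114414 CPM in T cells. Neutrophils and platelets also express several of the enzymes described here, and their part in the levels below was not tested. In sorted bulk samples, fewer cells of a type and less RNA per cell cannot be told apart.

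On the CPM scale, 7 of the 9 genes were lower in both T cell libraries than in both microglial ones within each treatment. Of all genes tested, 19.7% were so in PBS mice and 14.5% in IL-5 mice. The other 2, *Lta4h* and *Ptges3*, were higher in both, beside 42.2% and 43.8% of all genes. The difference of *Ptges3* was smaller than its SE after the scaling given below. Promoter windows ran from 250 bases before to 50 bases after the annotated start. The windows were read from RefSeq on GRCm38.p6, where 8 of the 9 genes had an entry. They were searched on both strands for GAGGAA, the core letters of sites of PU.1, an ETS factor of macrophages. Of the 8 windows 7 held it, against 28.3% of 32817 mouse windows of the same length, and the window of *Ptges3* did not. Positions count from the RefSeq start, which can differ from the start of the gene span given below. The window of *Tbxas1* (chr6:38918736-38919035) lay inside that span, as did the RefSeq start of *Hpgds*. The motif lay at -230 from the start in *Hpgd*, -136 in *Alox5*, -126 in *Lta4h*, -49 in *Hpgds*, -24 in *Ptgs1*, -19 in *Tbxas1* and 17 in *Ltc4s*. *Lta4h* thus carried the letters although its level was higher in T cells, so their presence did not separate the genes by cell type. The composite motif of ETS and IRF factors, and TTCNNNGAA, the letters of STAT factors, were found in 0 of the 8 windows, and in 2.72% and 8.29% of all windows. The 4 windows below show a microglial gene of prostaglandin breakdown, a microglial synthase and both genes with higher CPM in T cells. They are printed 5′ to 3′ on the strand of the gene, with GAGGAA or its reverse complement in capitals. *Hpgd* is at chr8:56294302-56294601 on the plus strand, *Hpgds* at chr6:65144681-65144980 on the minus strand, *Lta4h* at chr10:93453146-93453445 on the plus strand and *Ptges3* at chr10:128058732-128059031 on the plus strand.
Hpgd: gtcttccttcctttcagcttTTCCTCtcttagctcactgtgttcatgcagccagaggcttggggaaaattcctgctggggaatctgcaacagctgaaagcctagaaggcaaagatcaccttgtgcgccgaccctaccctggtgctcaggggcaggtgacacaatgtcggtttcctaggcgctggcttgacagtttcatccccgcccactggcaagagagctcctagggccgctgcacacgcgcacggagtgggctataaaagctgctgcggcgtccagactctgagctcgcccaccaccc
Hpgds: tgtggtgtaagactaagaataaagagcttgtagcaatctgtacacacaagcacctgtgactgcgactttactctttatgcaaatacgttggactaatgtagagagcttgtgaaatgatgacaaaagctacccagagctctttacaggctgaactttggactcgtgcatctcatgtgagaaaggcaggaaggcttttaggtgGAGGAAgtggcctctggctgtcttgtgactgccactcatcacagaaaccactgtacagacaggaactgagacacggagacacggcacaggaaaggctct
Lta4h: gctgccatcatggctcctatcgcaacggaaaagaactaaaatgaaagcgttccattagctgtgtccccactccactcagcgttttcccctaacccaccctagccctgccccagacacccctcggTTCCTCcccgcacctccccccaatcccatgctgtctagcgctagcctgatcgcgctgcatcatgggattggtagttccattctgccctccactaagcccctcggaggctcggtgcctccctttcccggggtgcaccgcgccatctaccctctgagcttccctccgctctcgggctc
Ptges3: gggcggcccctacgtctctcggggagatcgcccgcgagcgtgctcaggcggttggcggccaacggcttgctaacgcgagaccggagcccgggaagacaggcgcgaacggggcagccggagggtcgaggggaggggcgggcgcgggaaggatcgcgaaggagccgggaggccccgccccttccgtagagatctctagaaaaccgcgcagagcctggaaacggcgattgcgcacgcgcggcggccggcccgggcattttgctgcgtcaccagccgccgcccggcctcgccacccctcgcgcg
A match is a run of letters and not a site shown to be bound.

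Among the enzymes of prostanoid synthesis, *Ptgs1* (chromosome 2, 36230426 to 36252272, GRCm38, plus strand) encodes cyclooxygenase 1, the constitutive enzyme that commits arachidonic acid to prostaglandins. Its level was 405 and 305 CPM in PBS microglia and 235 and 285 CPM in IL-5 microglia. In T cells it was 36.8 and 1.44 CPM with PBS and 17.3 and 16.8 CPM with IL-5. All T cell values lay below all microglial values, and the 2 PBS T cell libraries differed from each other 25.6-fold while the 2 IL-5 libraries lay close together. The mean over the 4 microglial libraries was 17.0 times the mean over the 4 T cell libraries. The log2 difference of T cells from microglia was -4.92 (SE 1.21) in PBS mice and -4.76 (SE 1.21) in IL-5 mice.

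*Hpgds* (chromosome 6, 65117293 to 65144908, minus strand) encodes hematopoietic prostaglandin D synthase, which makes prostaglandin D2 in immune cells. It stood at 174 and 146 CPM in PBS microglia and at 216 and 151 CPM in IL-5 microglia. PBS T cells had 0.227 and 28.0 CPM and IL-5 T cells 23.1 and 17.1 CPM. One PBS T cell library was thus near the floor and the other was the highest of all 4 T cell libraries. *Ptgs1* was low in the PBS T cell library where *Hpgds* was high, and high where *Hpgds* was low. The microglial mean was 10.05 times the T cell mean for *Hpgds*, with log2 differences of -4.20 (SE 1.53) in PBS mice and -4.07 (SE 1.52) in IL-5 mice. The mast cell and basophil markers, cells that also make prostaglandin D2, summed to 0.341 and 27.0 CPM in PBS T cells and to 23.8 and 18.7 CPM in IL-5 T cells, a list that contains no member of the 9. Of the 8 genes in that list, 7 and 4 were at 0 in the PBS T cell libraries and 5 in each IL-5 one. The part of these cells in the T cell level of *Hpgds* was not tested.

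*Tbxas1* (chromosome 6, 38875404 to 39084585, plus strand) encodes thromboxane A synthase. It measured 167 and 180 CPM in PBS microglia and 58.7 and 141 CPM in IL-5 microglia. In T cells it was 0 and 9.67 CPM with PBS and 0 and 2.30 CPM with IL-5, so that 1 library of each treatment had no count. Its log2 difference between the cell types was -5.85 (SE 2.25) in PBS mice and -7.24 (SE 2.41) in IL-5 mice.

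*Ptges3* (chromosome 10, 128058954 to 128077272, plus strand) encodes the cytosolic prostaglandin E synthase, better known as p23, a cochaperone of HSP90. It was present everywhere, at 70.9 and 76.0 CPM in PBS microglia, 49.6 and 81.3 in IL-5 microglia, 136 and 123 in PBS T cells and 125 and 128 in IL-5 T cells. Every T cell library lay above every microglial one on the CPM scale, with a mean ratio of 1.84. On scaling by trimmed mean of M values (TMM) the log2 difference was 0.12 (SE 0.35) in PBS mice and 0.14 (SE 0.35) in IL-5 mice, smaller than its SE. By library size alone it was 0.82 and 0.95. A processed pseudogene, *Ptges3-ps*, is annotated, and reads shared with it make the level of *Ptges3* uncertain.

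*Hpgd* (chromosome 8, 56294585 to 56321043, plus strand) encodes 15-hydroxyprostaglandin dehydrogenase, the enzyme that begins the breakdown of prostaglandins E2 and F2α. It was a microglial gene, at 289 and 254 CPM with PBS and 118 and 250 CPM with IL-5. In PBS T cells it was at 0 and 0.0777 CPM, which are 0 and 2 counts. In IL-5 T cells it was at 7.94 and 10.7 CPM, which are 237 and 284 counts. *Hpgd* therefore lay below the floor in both PBS T cell libraries and above it in both IL-5 ones. The log2 difference of T cells from microglia was -13.28 (SE 0.85) in PBS mice and -5.09 (SE 0.57) in IL-5 mice.

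In the leukotriene branch, *Alox5* (chromosome 6, 116410077 to 116461178, minus strand) encodes 5-lipoxygenase. It was scarce in microglia, at 9.56 and 12.1 CPM with PBS and 4.50 and 38.5 CPM with IL-5. In T cells it was at 0 in 3 libraries and at 3.46 CPM in replicate 2 of the IL-5 group. Set against the floor of 3 counts per library, the PBS T cells were at least 94.2-fold lower than the PBS microglia. *Alox5ap* (chromosome 5, 149264767 to 149288153, plus strand) encodes FLAP, the membrane protein that presents arachidonic acid to 5-lipoxygenase. It stood at 461 and 471 CPM in PBS microglia and 352 and 337 CPM in IL-5 microglia. T cells had 0.0379 and 6.18 CPM with PBS and none after IL-5, where they were at least 3230-fold lower than the microglia of the same treatment on the same floor. Both genes that begin leukotriene synthesis were thus at or near 0 in 3 of the 4 T cell libraries, though not in the same 3.

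*Ltc4s* (chromosome 11, 50236461 to 50238616, minus strand) encodes leukotriene C4 synthase. In microglia it was at 588 and 541 CPM with PBS and 858 and 544 CPM with IL-5. Unlike *Alox5*, it was measured in every T cell library, at 59.9 and 45.9 CPM with PBS and 87.6 and 84.7 CPM with IL-5. Its log2 difference between the cell types was -4.11 (SE 0.43) in PBS mice and -3.91 (SE 0.43) in IL-5 mice. *Lta4h* (chromosome 10, 93453411 to 93484875, plus strand) encodes leukotriene A4 hydrolase, which makes leukotriene B4. Its levels ran the other way, at 36.3 and 37.2 CPM in PBS microglia and 8.75 and 22.6 CPM in IL-5 microglia, against 223 and 284 CPM in PBS T cells and 200 and 155 CPM in IL-5 T cells. The T cell mean was 8.23 times the microglial mean, with log2 differences of 2.09 (SE 0.44) and 2.73 (SE 0.46).

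**Figure D1:**
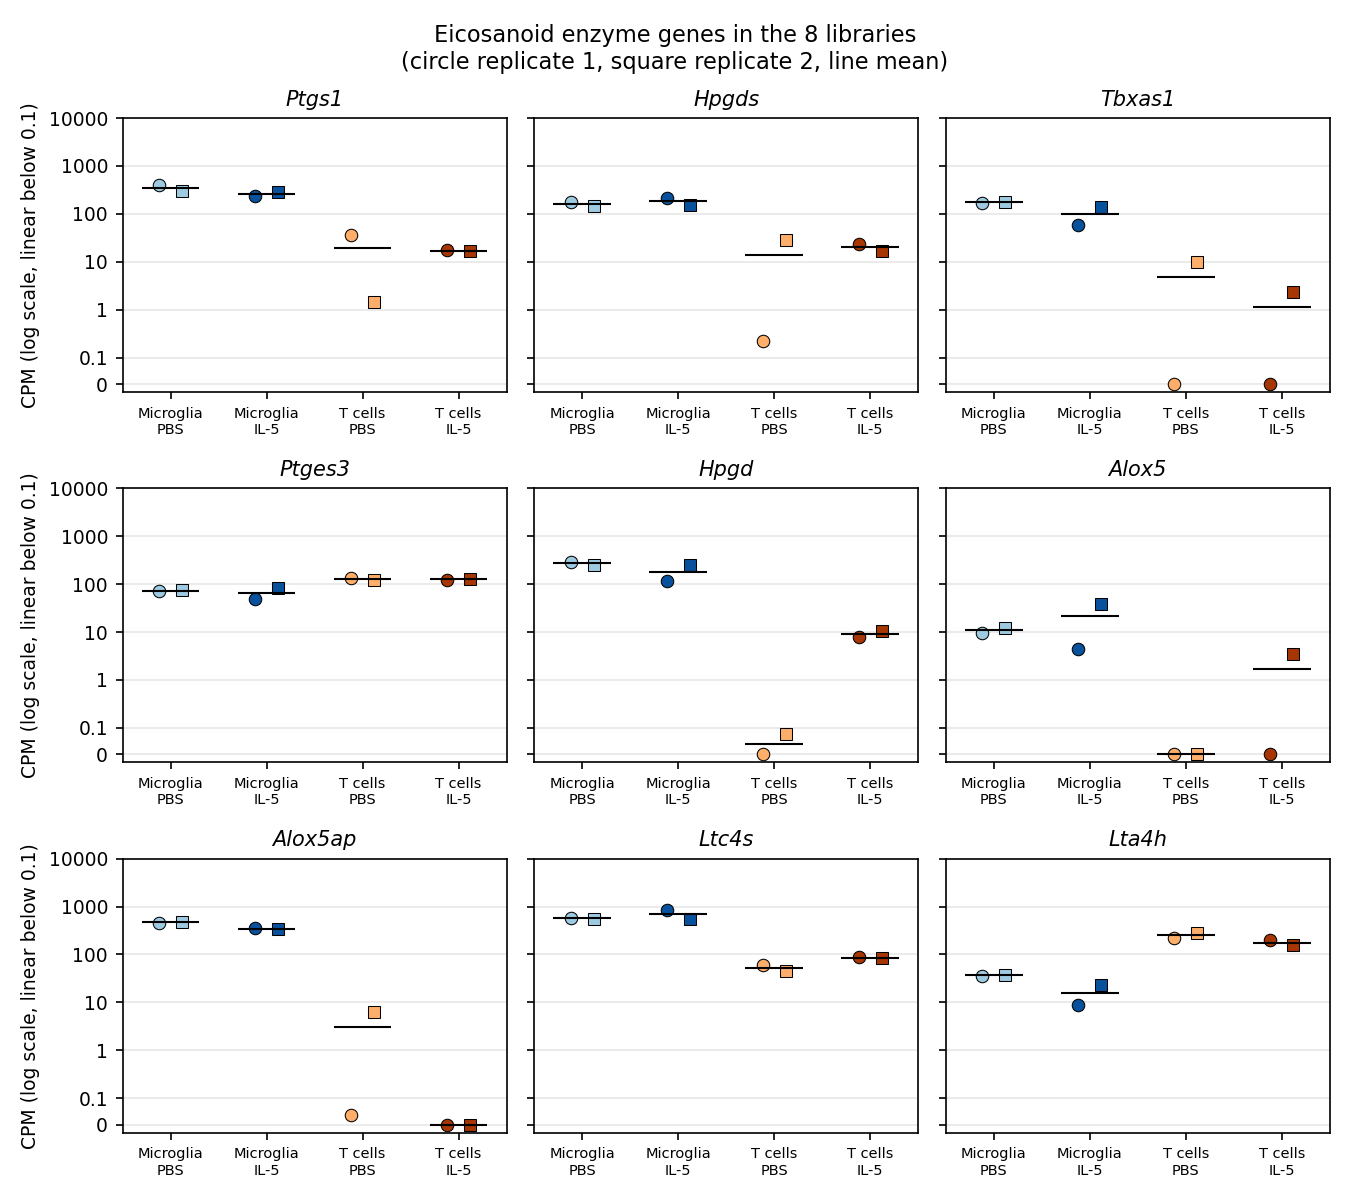
Level of each of the 9 genes in CPM, on an axis that is logarithmic above 0.1 and linear below it, for 2 libraries in each of the 4 groups (circle, replicate 1; square, replicate 2; line, mean). The T cell points lie below the microglial points for 7 genes and above them for *Ptges3* and *Lta4h*, and *Hpgd* leaves the bottom of the axis in the IL-5 T cells.

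The share of genes whose T cell and microglial libraries did not overlap within a treatment was large in these data. The 9 were chosen with this contrast in view, so nothing is read from their count. Of all 15397 genes tested, 19.7% lay wholly below microglia in PBS T cells and 42.2% wholly above, and in IL-5 mice 14.5% and 43.8%. By edgeR's quasi-likelihood test with Benjamini-Hochberg adjustment at 0.05, 4 of the 9 were called in PBS mice, *Hpgd*, *Alox5ap* and *Ltc4s* lower and *Lta4h* higher in T cells, beside 7.18% of all genes (4.6% lower and 2.57% higher). The same 4 were called in IL-5 mice, beside 8.22% of all genes (5.73% lower and 2.49% higher). DESeq2, another count test, called 7 of the 9 beside 18.3% of all genes in PBS mice and 5 beside 18.5% in IL-5 mice. Without either PBS microglial library, *Hpgd* and *Ltc4s* alone were called in PBS mice. The median log2 difference of the 9 was -4.92 in PBS mice and -4.36 in IL-5 mice, beside 0.06 and 0.19 over all genes. Scaling by library size alone in place of TMM raised the median of all genes by 0.70 and 0.82. It changed the calls over all genes from 396 higher and 709 lower in T cells to 919 and 376 in PBS mice, and from 383 and 883 to 958 and 336 in IL-5 mice. The same 4 of the 9 were called under that scaling.

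To order the genes among themselves, CPM was divided by the merged exon length of each gene. In microglia the mean level per kilobase was 624 CPM for *Ltc4s*, 285 for *Alox5ap*, 135 for *Hpgd*, 79.1 for *Ptgs1*, 31.3 for *Ptges3*, 26.7 for *Hpgds*, 15.0 for *Tbxas1*, 4.29 for *Lta4h* and 3.94 for *Alox5*. The ranges over the 4 microglial libraries overlapped between the neighbours *Hpgd* and *Ptgs1*, *Ptges3* and *Hpgds*, and *Lta4h* and *Alox5*, and also between *Tbxas1* and *Alox5*. In T cells the order began with *Ltc4s* at 68.6 CPM per kilobase, *Ptges3* at 57.7 and *Lta4h* at 35.3, where the range of *Ltc4s* overlapped those of *Ptges3* and *Lta4h*, and *Lta4h* lay below *Ptges3* in every library. The other 6 lay between 0.21 for *Alox5* and 4.66 for *Ptgs1*. T cell libraries thus held the transcripts of both terminal leukotriene enzymes, while *Alox5* and *Alox5ap*, which act before them, were each at or below the floor in 3 of the 4. Antisense genes overlap exons of *Ptgs1* (148 bases), *Tbxas1* (144), *Alox5ap* (189) and *Ltc4s* (268), and reads of such a pair cannot be told apart where counting does not use strand, which is not given in the sources used here.

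To set the T cell levels beside those of microglial markers, each gene was expressed as a percentage of its mean in microglia of the same treatment, next to the same percentage for the 16 microglial markers. The markers had a median of 0.00584% and 0.0802% in the PBS T cell libraries and of 0% and 0.0383% in the IL-5 ones. The highest single marker reached 1.87% and 1.51% after PBS (*Sall1* in both) and 2.69% (*Csf1r*) and 4.03% (*Sall1*) after IL-5. *Ltc4s* was above all 16 markers in every T cell library, at 10.6%, 8.12%, 12.5% and 12.1%. *Ptgs1* was above all 16 in 3 of the 4, at 10.4% in PBS replicate 1 and 6.67% and 6.48% after IL-5, but at 0.405% in PBS replicate 2. *Hpgds* was above all 16 in 3 of the 4, at 17.5% in PBS replicate 2 and 12.6% and 9.30% after IL-5, but at 0.142% in PBS replicate 1. *Tbxas1* and *Alox5* were above all 16 in 1 library each, at 5.58% in PBS replicate 2 and 16.1% in IL-5 replicate 2. *Hpgd* was at 0% and 0.0287% after PBS, where 12 and 14 markers were above it. After IL-5 it was at 4.32% and 5.81%, where 0 of the 16 markers were above it. *Hpgd* was chosen for its presence in both IL-5 T cell libraries, so nothing is read from its place among the markers. On TMM-scaled library sizes its mean in the IL-5 libraries was 2.93% in place of 5.06%, with the markers scaled by the same factors.

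**Figure D2:**
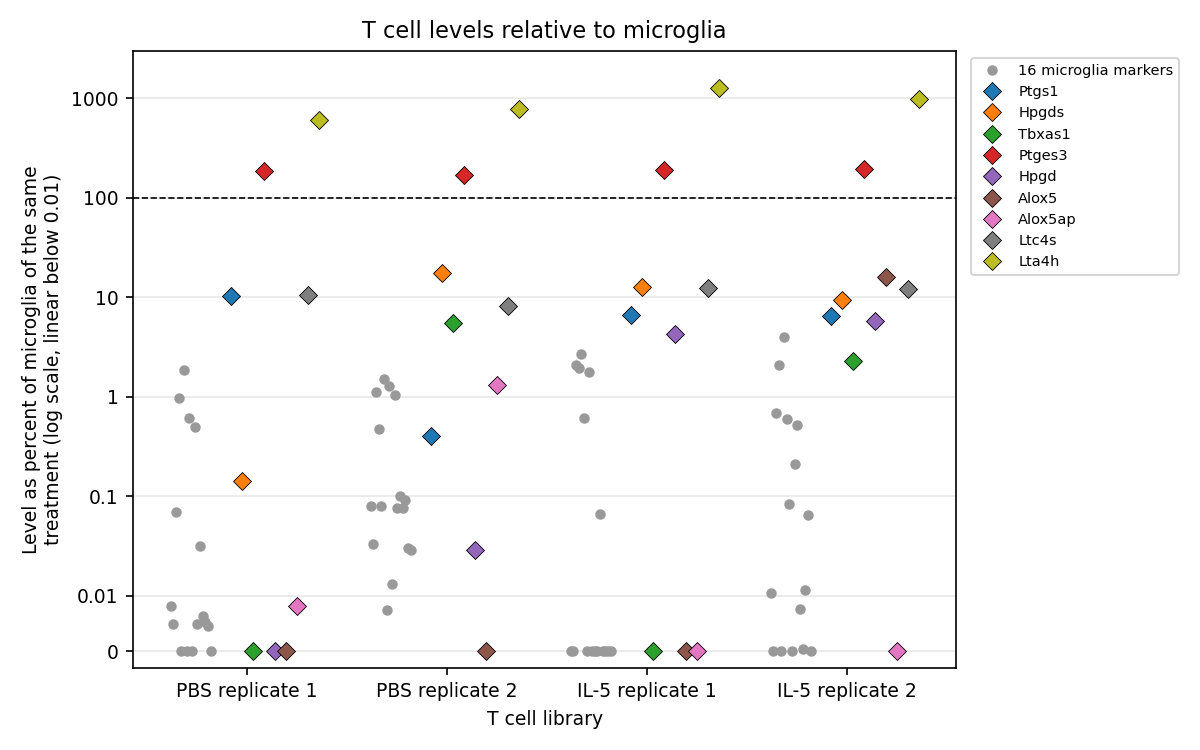
Level in each T cell library (x axis) as a percentage of the microglial mean of the same treatment (y axis, logarithmic above 0.01 and linear below it, dashed line at 100%), for the 9 genes (coloured diamonds) and the 16 microglial markers (grey points). *Hpgd* lies among the markers in the PBS libraries and above all of them in both IL-5 libraries, which restates how it was chosen. *Alox5ap* is at 0 in both IL-5 libraries.

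Between the T cell treatments, *Hpgd* had the largest fitted difference of the 7 genes that could be fitted. This rank restates how *Hpgd* was chosen. Pooled over the libraries of each treatment, 521 counts with IL-5 stood against 2 with PBS. The fitted log2 difference was 7.80 (SE 2.99), a value that depends on the small count added to libraries near 0. The limits counted next were drawn from the values of *Hpgd* itself. *Hpgd* thus met them by choice, and nothing is read from its place among the genes. At least 5 CPM in both IL-5 libraries and at most 3 counts in both PBS libraries, limits set after the values were seen, was met by 58 of 24924 genes (0.233%), and the reverse by 11 (0.0441%). Of the 1483 genes that averaged at least 100 CPM in microglia, 2 met it, *Hpgd* at 228 CPM and *Slpi*, a secreted protease inhibitor, at 115 CPM. The next by microglial CPM was *Prg2*, the eosinophil major basic protein, at 84.2 CPM in microglia. *Prg2* stood at 0 and 0.117 CPM in PBS T cells and at 34.2 and 24.7 CPM in IL-5 T cells. *Ggt5*, the enzyme that converts leukotriene C4 to leukotriene D4, just missed these limits, with 0 and 0.155 CPM in PBS T cells and 15.4 and 21.6 CPM in IL-5 T cells.

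Markers of other cells were compared over the same 4 libraries. Of the 15 marker lists, 3 had both summed IL-5 values above both PBS values, 3 had both below and 9 overlapped. Border macrophage markers, whose cells line the vessels and meninges, summed to 12.1 and 18.3 CPM with PBS and to 39.1 and 29.2 CPM with IL-5, while *Lyve1* and *Ms4a7* were at 0 in all 4. *Cbr2* alone made the sum in PBS replicate 1 and in IL-5 replicate 1 (12.1 and 39.1 CPM), and *Pf4* made most of it in PBS replicate 2 and in IL-5 replicate 2 (13.3 and 21.1 CPM). The receptor gene *Mrc1* was at 0 in 3 of these libraries and at 0.151 CPM in IL-5 replicate 2. Eosinophil markers summed to 0 and 9.87 CPM with PBS and to 34.2 and 37.5 CPM with IL-5. *Prg2*, already named for this pattern, made up the sum of IL-5 replicate 1 and 24.7 CPM of that of IL-5 replicate 2, and *Ccr3* made 9.64 CPM of that of PBS replicate 2 and stood at 0 and 0.602 CPM with IL-5. *Epx*, eosinophil peroxidase, was at 11.8 CPM in IL-5 replicate 2 and at 0 in the other 3, and *Il5ra*, the IL-5 receptor chain, was at 0 in all 4. Choroid plexus markers summed to 82756 and 58124 CPM with PBS and to 111336 and 114414 CPM with IL-5. The part of these 3 lists in the level of *Hpgd* was not tested. The 3 lists that were lower were those of T cells, regulatory T cells and monocytes. Regulatory T cells are another known site of *Hpgd*. Their 9 markers summed to 278 and 382 CPM with PBS and to 204 and 227 CPM with IL-5. *Tnfrsf18* made the largest part, at 132 and 144 CPM with PBS and 87.6 and 81.9 CPM with IL-5. *Foxp3* was at 5.34 and 36.3 CPM with PBS and at 0 and 6.32 CPM with IL-5. *Ctla4* had the higher mean with IL-5, at 9.77 and 37.2 CPM with PBS and 30.6 and 40.5 CPM with IL-5. Values of *Foxp3* and of *Ctla4* overlapped between the treatments. The part of regulatory T cells in the level of *Hpgd* was not tested. Microglial markers overlapped between the treatments, at 104 and 141 CPM against 184 and 111 CPM. In the IL-5 libraries *P2ry12* was at 0 and 0.226 CPM, *Trem2* at 0 and 1.66 CPM, and *Tmem119*, *Aif1* and *P2ry13* at 0 in both, so these defining microglial markers were at or near 0 where *Hpgd* was present.

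**Figure D3:**
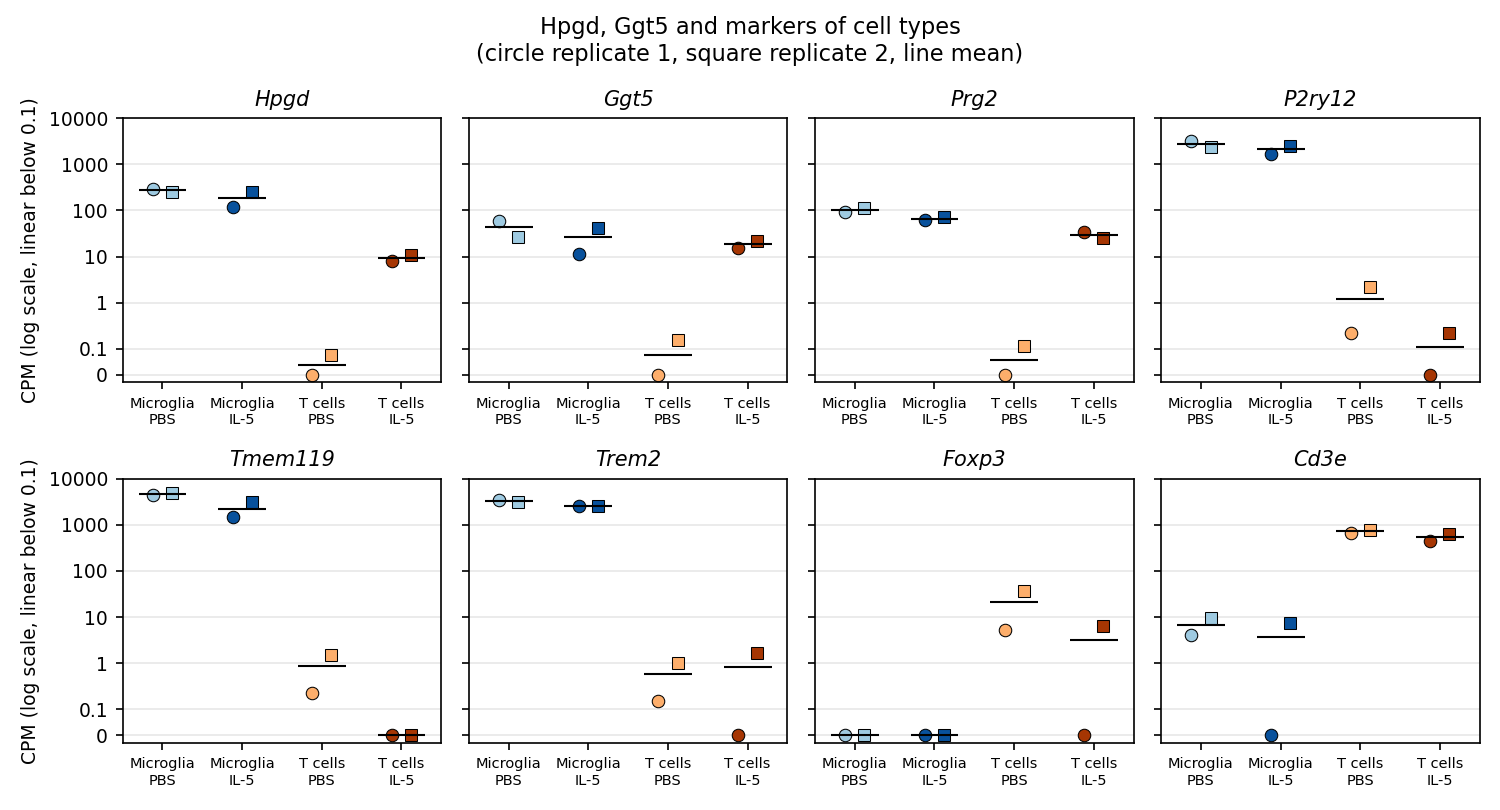
Level in CPM, on an axis that is logarithmic above 0.1 and linear below it, of *Hpgd*, *Ggt5*, *Prg2*, the microglial genes *P2ry12*, *Tmem119* and *Trem2*, and the T cell genes *Foxp3* and *Cd3e*, in 2 libraries per group (circle, replicate 1; square, replicate 2; line, mean). *Hpgd*, *Ggt5* and *Prg2* lie between 7.94 and 34.2 CPM in both IL-5 T cell libraries and at or near 0 in both PBS ones. *Tmem119* is at 0 in both IL-5 T cell libraries.

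The other 8 genes differed less between the T cell treatments. *Ltc4s* was higher in both IL-5 libraries than in both PBS ones, with a log2 difference of 0.75 (SE 0.38), and *Lta4h* was lower in both, with -0.46 (SE 0.26). *Alox5ap* was at 0.0379 and 6.18 CPM with PBS and at 0 in both IL-5 libraries, but its PBS replicate 1 held 1 count, under the floor, and is not distinguishable from 0. *Ptges3* stood at 0.01 (SE 0.27), *Ptgs1* at -0.13 (SE 1.44), *Hpgds* at 0.57 (SE 1.79) and *Tbxas1* at -2.02 (SE 3.72). The SEs of the last 3 exceeded the differences, and their PBS libraries differed widely from each other. Of the 7 genes that passed the filter on low counts, 2 were higher in both IL-5 libraries and 1 was lower in both, beside 16.6% and 19% of all genes tested. edgeR called 0 of the 7 that passed its filter (*Alox5* and *Alox5ap* did not pass), beside 0% of 13897 genes. At an unadjusted p under 0.05 it had 1 of the 7, *Hpgd*, beside 4.32% of all genes, and DESeq2 called that 1 of 7 beside 4.73%. For *Hpgd* these restate how it was chosen. The difference between the IL-5 responses of T cells and microglia was 8.19 (SE 0.90) on the log2 scale for *Hpgd*. For that difference edgeR called 0 of the 9 beside 0% of all genes, and DESeq2 called *Hpgd* beside 1.18%. Nothing is read from these counts, since the T cell contrast was used to choose the genes.

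In microglia, where the IL-5 contrast was free of the choice, none of the 9 genes passed the test. edgeR called 0 of 9, beside 0% of 13764 genes. At an unadjusted p under 0.05 it had 0 of 9, against 4.48% of all genes, and DESeq2 called 0 of 9 beside 0.487% of all genes. *Lta4h* had the most negative log2 difference, -1.14 (SE 0.62, edgeR adjusted p = 0.964), followed by *Tbxas1* at -0.71 (SE 0.44, edgeR adjusted p = 0.974) and *Hpgd* at -0.46 (SE 0.42, edgeR adjusted p = 0.984). *Ptgs1* stood at -0.30 (SE 0.39), *Alox5ap* at -0.26 (SE 0.39) and *Ptges3* at -0.04 (SE 0.41). *Alox5* stood at 1.00 (SE 1.02), *Ltc4s* at 0.52 (SE 0.47) and *Hpgds* at 0.39 (SE 0.44). The median of the 9 was -0.26, beside -0.02 over all genes, a median that moved by -0.13 with scaling by library size alone. On the CPM scale 5 of the 9 were lower in both IL-5 libraries than in both PBS ones, *Ptgs1*, *Tbxas1*, *Hpgd*, *Alox5ap* and *Lta4h*, beside 23.1% of all genes, and 0 were higher in both, beside 15% of all genes.

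The 2 IL-5 microglial libraries disagreed for several of the 9. Replicate 1, the library with the largest share of reads outside genes, held less *Hpgd* (118 against 250 CPM), *Tbxas1* (58.7 against 141 CPM), *Alox5* (4.50 against 38.5 CPM) and *Lta4h* (8.75 against 22.6 CPM) than replicate 2, and more *Ltc4s* and *Hpgds*. Without replicate 1 the log2 difference was -0.14 for *Hpgd*, -0.33 for *Tbxas1*, -0.72 for *Lta4h* and 1.81 for *Alox5*, and *Hpgds*, *Ptges3* and *Ltc4s* changed sign, to -0.11, 0.12 and -0.08. Without replicate 2 it was -0.86 for *Hpgd*, -1.22 for *Tbxas1*, -1.73 for *Lta4h*, -0.93 for *Alox5* and 0.94 for *Ltc4s*. That fit, which compares replicate 1 alone with the PBS libraries and assumes that it varies as they do, called *Tbxas1* and *Ltc4s* and 1255 genes in all.

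**Figure D4:**
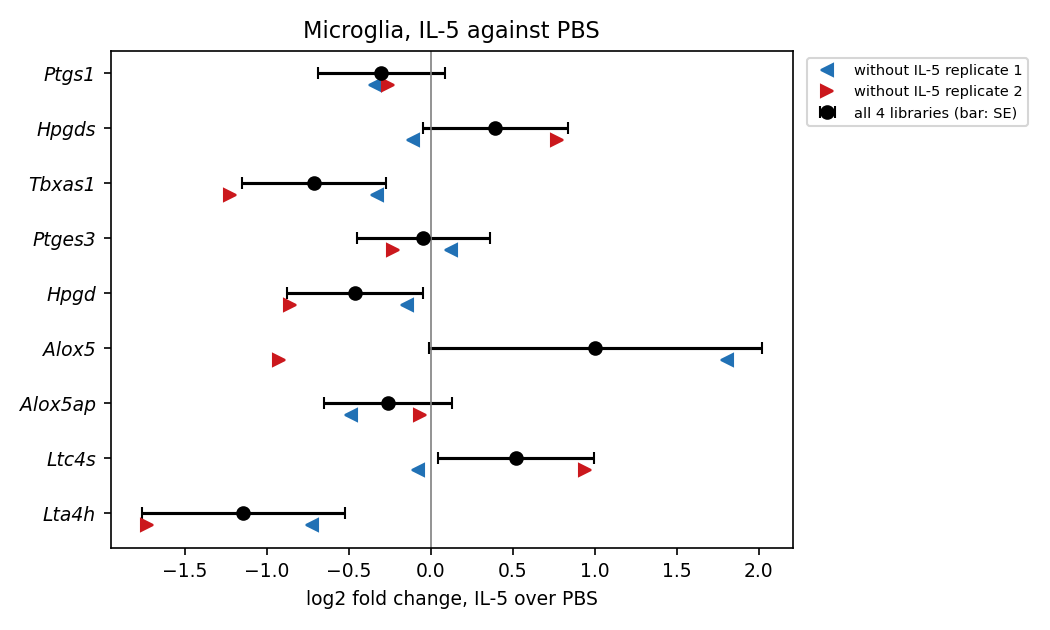
Log2 difference of IL-5 from PBS microglia (x axis) for each of the 9 genes, from the edgeR fit of all 4 libraries (black points, bars of 1 SE) and from fits without IL-5 replicate 1 (blue) or IL-5 replicate 2 (red). *Ptgs1*, *Tbxas1*, *Hpgd*, *Alox5ap* and *Lta4h* are below 0 in all 3 fits, while the other 4 move across 0 with the library left out.

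The rest of the eicosanoid pathway was taken as a list of 41 genes, all found in the table, of which 27 reached a mean of 10 CPM in some group. Their median log2 difference of T cells from microglia was -0.55 in PBS mice and -0.23 in IL-5 mice, beside 0.06 and 0.19 over all genes. In PBS mice 5 of 36 tested genes (13.9%) passed edgeR's test, 1 higher and 4 lower in T cells, and in IL-5 mice 0 were higher and 3 lower (8.33%), beside the 7.18% and 8.22% of all genes.

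Among the enzymes that release substrate, the lysosomal phospholipase *Pla2g15* was lower in T cells by edgeR's test, at 490 and 586 CPM in PBS microglia against 16.1 and 58.3 CPM in PBS T cells. Its log2 difference was -4.55 (SE 0.91, adjusted p = 0.0202) in PBS mice and -4.23 (SE 0.90, adjusted p = 0.0244) in IL-5 mice. *Daglb*, a diacylglycerol lipase of microglia and macrophages, was lower in T cells, with log2 differences of -4.38 (SE 0.45, edgeR adjusted p = 0.000867) and -2.84 (SE 0.42, edgeR adjusted p = 0.00521). *Pla2g4a*, the cytosolic phospholipase A2 of classical eicosanoid synthesis, stood at 15.3 and 27.0 CPM in PBS microglia, 2.12 and 14.9 in IL-5 microglia, 156 and 76.2 in PBS T cells and 38.04 and 45.25 in IL-5 T cells. All T cell libraries lay above all microglial ones, but the difference did not pass the test, with 1.75 (SE 0.81) in PBS mice and an edgeR adjusted p of 0.24. Another phospholipase, *Pla2g6*, ranged from 0.644 to 29.5 CPM over the 8 libraries, and the monoacylglycerol lipase gene *Mgll* from 24.9 to 103 CPM.

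Of the other prostanoid synthases, *Fam213b*, a prostaglandin F synthase also named *Prxl2b*, was lower in T cells in both treatments. It stood at 78.0 and 78.9 CPM in PBS microglia and 18.7 and 17.8 CPM in PBS T cells, with a log2 difference of -2.80 (SE 0.45, edgeR adjusted p = 0.00683), and in IL-5 mice at -2.50 (SE 0.45, edgeR adjusted p = 0.0118). *Ptgs2*, the inducible cyclooxygenase, was scarce in microglia, at 13.3 and 15.9 CPM with PBS and 12.1 and 10.7 CPM with IL-5. In T cells it was at 130 and 36.5 CPM with PBS and 34.4 and 21.9 CPM with IL-5. *Ptges*, the inducible prostaglandin E synthase, was at 5.72 and 2.06 CPM in PBS microglia, 0 in both IL-5 microglial libraries, 17.2 and 0 in PBS T cells and 0 and 9.37 in IL-5 T cells. *Ptges2* lay between 13.1 and 55.9 CPM in all 8. *Ptgds*, the lipocalin-type prostaglandin D synthase known from choroid plexus and meninges, was at 989 and 769 CPM with PBS and 1270 and 1664 CPM with IL-5, and 486 to 792 CPM in microglia. In T cells both it and the choroid plexus markers given above were higher in the 2 IL-5 libraries than in the 2 PBS ones, and their part in it was not tested. Of the remaining synthases, *Ptgis* ranged from 3.87 to 91.3 CPM and *Cbr1* from 7.10 to 88.3 CPM.

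In the leukotriene branch, *Ggt5* differed between the cell types in PBS mice. It stood at 59.8 and 26.5 CPM in PBS microglia and 11.6 and 41.9 CPM in IL-5 microglia, and the log2 difference of T cells from microglia was -9.72 (SE 1.48, edgeR adjusted p = 0.00519) in PBS mice and -1.28 (SE 1.00, edgeR adjusted p = 0.49) in IL-5 mice. The difference of the 2 IL-5 responses of *Ggt5* was 8.43 (SE 1.65), with an edgeR adjusted p of 0.399. The alternative leukotriene C4 synthases *Mgst2* and *Mgst3* were present in both cell types, at 11.2 to 36.1 CPM and 15.6 to 138 CPM. *Abcc1*, the exporter of leukotriene C4, was at 6.44 and 2.17 CPM in PBS microglia, 27.6 and 20.0 CPM in IL-5 microglia and 35.1 to 47.2 CPM in T cells. Its log2 difference of IL-5 from PBS microglia was 2.66 (SE 0.92, edgeR adjusted p = 0.964). *Abcc4*, which exports prostaglandins, was at 6.76 to 19.3 CPM in microglia and 48.7 to 60.2 CPM in T cells. The reductases *Ptgr1* and *Ptgr2*, which act after *Hpgd* in prostaglandin breakdown, ranged from 8.43 to 26.6 CPM and from 27.1 to 119 CPM. *Cyp4f18*, which inactivates leukotriene B4, was at 3.02 to 75.9 CPM in microglia and 0 to 6.80 CPM in T cells.

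Among the receptors, the cysteinyl leukotriene receptor *Cysltr2* was higher in T cells than in microglia in PBS mice and did not pass the test in IL-5 mice (edgeR adjusted p = 0.239). It was at 0 in both PBS microglial libraries and at 0 and 1.25 CPM with IL-5, and at 44.3 and 54.9 CPM in PBS T cells and 7.20 and 29.0 CPM in IL-5 T cells. It was at least 474-fold higher in PBS T cells on the floor of 3 counts per library (edgeR adjusted p = 0.0341). *Cysltr1*, the other receptor for these leukotrienes, was at 60.4 and 74.7 CPM in PBS microglia, 52.4 and 36.3 in IL-5 microglia, 5.11 and 51.4 in PBS T cells and 9.38 and 7.08 in IL-5 T cells, and did not pass the test in either treatment (edgeR adjusted p = 0.245 and 0.0692). *Ptger4*, a prostaglandin E2 receptor, was at 0, 22.2, 0 and 17.2 CPM in the microglial libraries and 75.1 to 150 CPM in T cells. *Ptger1*, *Ptger2*, *Ptger3*, *Tbxa2r* and *Ltb4r1* each reached a mean of 10 CPM in at least 1 group, and their single libraries ranged from 0 to 51.4 CPM. The other receptors of the list were below that mean in every group. *Ptgdr2*, the prostaglandin D2 receptor of type 2 T cells, was at 0 in 7 of the 8 libraries and at 0.738 CPM in PBS T cell replicate 2.

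Within a cell type none of the 41 was called for IL-5. edgeR called 0 of 32 tested in microglia and 0 of 31 in T cells, beside 0% of all genes in each. At an unadjusted p under 0.05 it had 5 of the 32 (15.6%, against 4.48% of all genes) and 3 of the 31 (9.68%, against 4.32% of all genes), *Pla2g4a* at -1.43, *Ptgds* at 0.78 and *Ggt5* at 7.87 on the log2 scale. DESeq2 called 0 and 3 of the list, beside 0.487% and 4.73% of all genes. Without IL-5 microglial replicate 2, edgeR called 5 of the list for IL-5 in microglia, *Cbr1*, *Daglb*, *Ltb4r1*, *Mgst3* and *Pla2g15*. For T cells against microglia, leaving out either PBS microglial library or PBS T cell replicate 1 reduced the 5 calls to *Daglb*, *Fam213b* and *Ggt5*. Leaving out IL-5 microglial replicate 2 raised the 3 calls in IL-5 mice to 8, and leaving out IL-5 T cell replicate 2, or scaling by library size alone, reduced them to *Daglb*.

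**Figure D5:**
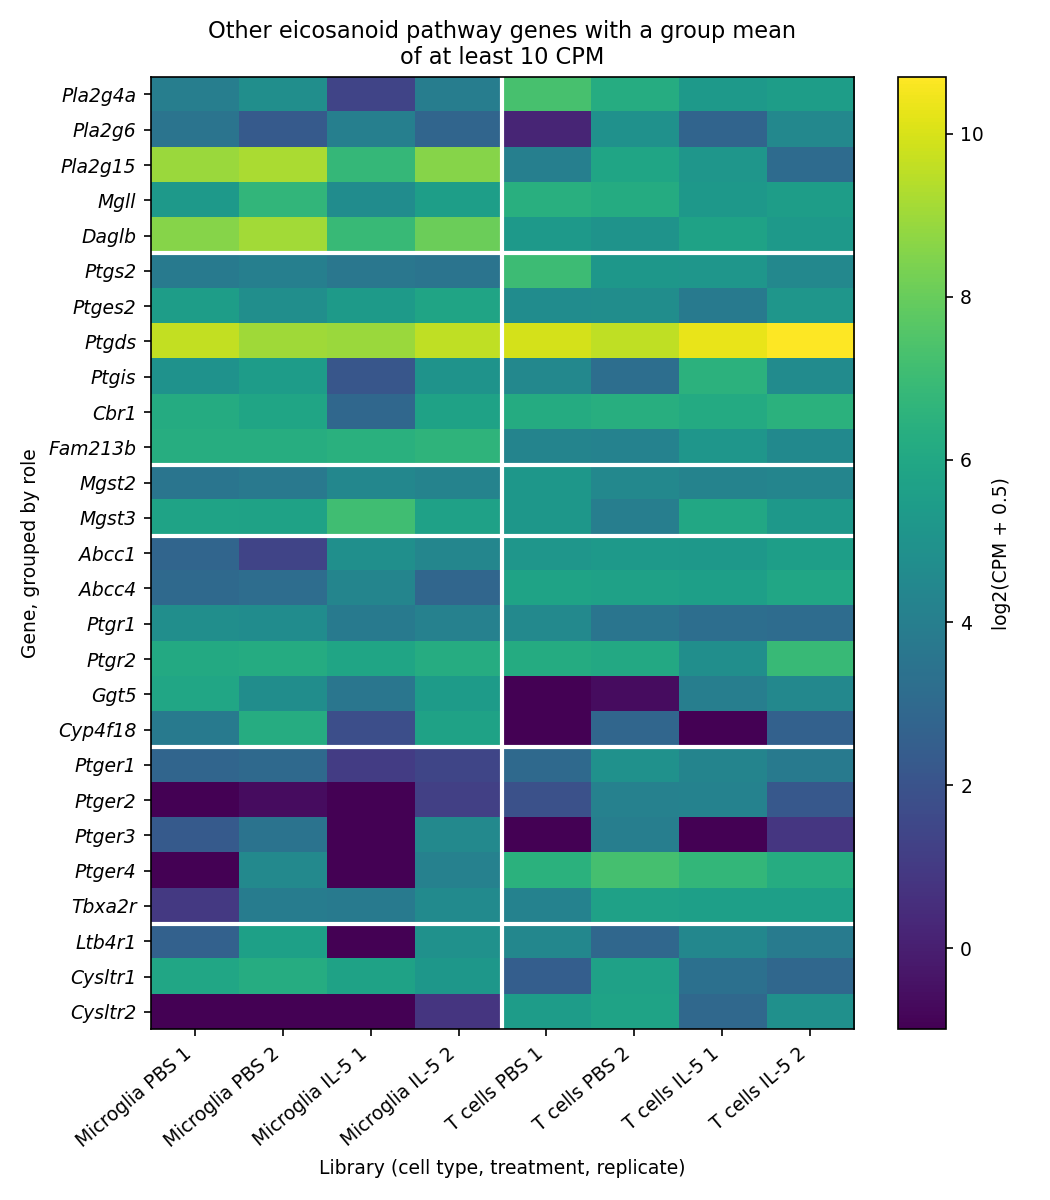
Heat map of log2(CPM + 0.5), shown by colour, for the 27 genes of the wider eicosanoid pathway with a group mean of at least 10 CPM (rows, white lines between roles) in the 8 libraries (columns, a white line between microglia and T cells). *Pla2g15* and *Daglb* are brighter in the microglial libraries, *Cysltr2* and *Ptger4* in the T cell libraries, and *Ggt5* is dark in both PBS T cell libraries.

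The genes whose pattern was most like that of *Hpgd* were sought by Pearson correlation of log2(CPM + 0.5) over the 8 libraries, which share the 2 cell types and so give high values to any microglial gene. Of 10014 genes compared, 29 reached 0.95. The closest were *Hk3* (0.996), *Cd300a* (0.988), *Ifngr2* (0.987), *Lpcat3* (0.981), *Prdx5* (0.978) and *Plpp2* (0.978). *Hk3*, a hexokinase of myeloid cells, was at 0 in both PBS T cell libraries and at 3.416 and 3.501 CPM in the IL-5 ones. *Cd300a*, an inhibitory receptor of myeloid cells, was at 0 and 0.117 CPM and at 6.53 and 2.71 CPM. *Lpcat3*, which returns arachidonic acid to phospholipids, was at 14.7 and 27.0 CPM in PBS T cells and 63.8 and 77.6 CPM in IL-5 T cells. Of the other 8 genes, *Ltc4s* came nearest, at 0.939 and rank 60, followed by *Alox5* (0.899), *Ptgs1* (0.872), *Hpgds* (0.850), *Alox5ap* (0.820) and *Tbxas1* (0.814), while *Ptges3* (-0.805) and *Lta4h* (-0.857) ran the other way. Within the 4 T cell libraries alone the 6 closest were *Slc17a9*, *Eif2d*, *Ggt5*, *Dnpep*, *Tmem245* and *Il1r2*, out of 231 of 9938 genes that reached 0.95 over these few libraries. *Il1r2* rests on values below the floor, at 0 in both PBS libraries and at 0.0335 and 0.0376 CPM with IL-5. *Dnpep*, an aminopeptidase, was at 27.5 and 28.9 CPM with PBS and at 65.7 and 69.9 CPM with IL-5. *Tmem245* was at 14.0 and 14.3 CPM and at 61.8 and 70.5 CPM. Within the 4 microglial libraries, where IL-5 replicate 1 alone sat low for *Hpgd*, the 6 closest were *Tbccd1*, *Meis3*, *Rxra*, *Ap4b1*, *Ptdss1* and *Cpsf1*. Over these 4 libraries 1493 of 10014 genes reached 0.95, so the 6 names are not particular to *Hpgd*.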

How the data were processed

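RNA was sequenced from 8 libraries of sorted cells. The deposited values are raw counts of reads per gene symbol. Per the submitters' processing notes, the tools were DESeq2 1.1, STAR 2.5.3a, FastQC 1.0.0, Cufflinks 2.0 and bcl2fastq 2.20.0.422, with mm10 (GRCm38) as the build; the counting tool and its strand setting are not given in the sources used here. Of 24953 entries, 2 summary entries and 27 genes with 53 unreadable cells were left out. Symbols were matched to GENCODE M21 (97.9% to 1 gene). Counts were scaled by TMM, filtered with filterByExpr (minimum count 10) and tested with edgeR 4.0.16 (quasi-likelihood, robust) in R 4.3.3, with Benjamini-Hochberg adjustment over all genes tested and a threshold of 0.05. IL-5 contrasts within a cell type used the 4 libraries of that type, and contrasts between cell types used all 8. The SE is the log2 difference divided by the square root of its F statistic. The procedure was tested on simulated data. Alternatives were DESeq2 1.42.0, other scalings and filters, the replicate number as a block within each cell type and leaving out each library. Members and lists were chosen with earlier results of these data known. Named pathway genes are those with a group mean of at least 10 CPM or past the threshold, plus *Ptgs2* and *Ptges*; those named for likeness to *Hpgd* are the 6 closest. *Slpi*, *Prg2* and *Ptgdr2* were chosen after their values were seen.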

Additional observations from a re-analysis of the deposited data

Results flagged for a closer look

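The IL-5 values of *Hpgd* lay on opposite sides of the PBS values in the 2 cell types. Both IL-5 T cell libraries (7.94 and 10.7 CPM) lay above both PBS T cell libraries (0 and 0.0777 CPM), while both IL-5 microglial libraries (118 and 250 CPM) lay below both PBS ones (289 and 254 CPM). The microglial difference did not pass its test (-0.46, SE 0.42 on the log2 scale, edgeR adjusted p = 0.984) and was -0.14 without IL-5 replicate 1. The log2 response of T cells minus that of microglia was 8.19. In the fits over all genes edgeR did not call that difference and DESeq2 did, but for *Hpgd*, chosen on its T cell values, these are no independent test, and in that sense the difference was not tested.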

How the results depend on the processing

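Deviations of same-numbered libraries from their group means correlated at 0.0139 in microglia and 0.0163 in T cells. No shift shared by same-numbered libraries was thus seen within a cell type. The labels do not say whether same-numbered libraries shared mice, and pairing across the cell types was not examined. The replicate number was also fitted as a block, with a separate term in each cell type, which does not pair T cells with microglia. With it, 5 of the 9 genes were called between the cell types in PBS mice and 5 in IL-5 mice (4 each without it). The pathway calls were 5 and 3, and 0 of the 9 were called for IL-5 within either cell type. DESeq2 called 7 of the 9 and 8 pathway genes between the cell types in PBS mice, 7 pathway genes in IL-5 mice, 1 of the 9 (*Hpgd*) and 3 pathway genes for IL-5 in T cells, and 1 of the 9 (*Hpgd*) and 2 pathway genes for the difference of the IL-5 responses, where edgeR called 0. In that last contrast 1 of the 9 (*Hpgd*) and 1 pathway gene were called with no filter on low counts. Fitting all 8 libraries together called 1 of the 9 (*Hpgd*) for IL-5 in T cells. Scaling by library size alone left 1 pathway call in IL-5 mice. The mean level of *Hpgd* in IL-5 T cells was 5.06% of microglia on CPM and 2.93% on TMM-scaled library sizes. Leaving out 1 library at a time gave 0 to 2 of the 9 and 0 to 5 pathway genes for IL-5 in microglia, 2 to 5 and 3 to 7 between the cell types in PBS mice, 1 to 8 pathway genes in IL-5 mice, and 0 to 2 of the 9 for the difference of the responses. In microglia the log2 differences then ran from -0.11 to 0.77 for *Hpgds*, -0.23 to 0.12 for *Ptges3*, -0.076 to 0.94 for *Ltc4s* and -0.93 to 1.81 for *Alox5*. Over all genes, the 1105 calls between the cell types in PBS mice became 2825 with DESeq2, 1722 with no filter, 567 with the block and 508 to 2028 with 1 library left out. The 1266 in IL-5 mice became 2843, 703 with the block and 385 to 2209. The 0 calls of the other contrasts became 67 (IL-5 in microglia), 658 (IL-5 in T cells) and 181 (difference of the responses) with DESeq2. In the last contrast, 31 were called with no filter. The causes were not tested. Depth limits what can be said of *Hpgd*, *Alox5* and *Alox5ap* in T cells, whose libraries at 0 allow up to 3 counts.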
